A study of Homo sapiens with 6 samples.

Results

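AXL, TYRO3, MET, IGF1R, INSR, EPHA2, EPHB4, FGFR1 and DDR1 encode receptor tyrosine kinases outside the ERBB family, and GAS6 encodes the secreted ligand of AXL and TYRO3. These 10 genes were chosen by symbol, with earlier results of these data known. Each matched 1 row of the 20042 in the count table through its Ensembl identifier. All 10 were among the 12440 genes with enough counts to test. RNA was sequenced from 6 cultures of MDA-MB-231, a widely used line of triple-negative breast cancer with a basal, mesenchymal-like character. In 3 cultures the cells had been transfected with siRNA-1, a small interfering RNA directed against the transcript named ERBBride and labelled as its knock down. In the other 3 they had received a control siRNA (siCTRL) and are labelled WT, and both groups thus went through transfection of the same cell line. The labels call the cultures biological replicates but no source used here says how they were separated, and p-values therefore measure the spread between these samples. One siRNA against the target was used, so that loss of the target and any other effect of that duplex cannot be told apart. The level of ERBBride was not analysed here, and its knockdown was not checked.

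A receptor tyrosine kinase spans the plasma membrane, binds a ligand outside the cell and phosphorylates tyrosines on itself and its partners inside it. Different receptors feed the same adaptors, the RAS and ERK cascade and PI3-kinase, and a receptor that keeps these routes active when EGFR is blocked is called a bypass receptor. AXL and MET are the best known examples in cancers treated with EGFR inhibitors, and AXL is characteristic of mesenchymal-like breast cancer lines.

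Libraries held 12813706 to 15014434 counts, and 3 counts corresponded to at most 0.233 CPM (counts scaled to a common library size), a limit that covers counting error only. The second principal component (8.43% of variance) set the library siCTRL 2, at -22.3, apart from the others (-2.90 to 13.3), and counts that change without it are given beside the result. Markers fitted the labelled line: VIM, CD44, CAV1, MSN and FOSL1 had at least 191 CPM in every library, although all 5 fell in siRNA-1 cells. ESR1, PGR and FOXA1 of luminal breast had at most 3 counts, and CD3E and CDH5 had 0. GATA3 (3.98 to 12.9 CPM), CDH1 (0.397 to 3.11 CPM), PECAM1 (3.68 to 8.39 CPM) and PTPRC (0.149 to 0.861 CPM) were low. The first 3 of these also fell in siRNA-1 cells, and the part of the marker changes in the results was not tested. In these bulk samples fewer cells of a type and less RNA per cell cannot be told apart.

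AXL and MET, the best known bypass receptors among the 10 genes, were both lower in siRNA-1 cells, AXL by more than 2-fold, and their upstream sequences are shown for that reason. Each holds the 250 bases before the RefSeq transcription start on GRCh38.p14, plus strand, from chr19:41218973-41219222 for AXL and chr7:116671946-116672195 for MET, written 5′ to 3′. Capitals mark the GC box GGGCGG, the letters bound by SP1-type factors, searched on both strands.
AXL: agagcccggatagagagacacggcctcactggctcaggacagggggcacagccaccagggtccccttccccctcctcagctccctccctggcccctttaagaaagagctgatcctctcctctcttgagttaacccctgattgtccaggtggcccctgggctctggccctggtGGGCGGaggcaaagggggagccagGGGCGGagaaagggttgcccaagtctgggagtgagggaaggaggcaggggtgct
MET: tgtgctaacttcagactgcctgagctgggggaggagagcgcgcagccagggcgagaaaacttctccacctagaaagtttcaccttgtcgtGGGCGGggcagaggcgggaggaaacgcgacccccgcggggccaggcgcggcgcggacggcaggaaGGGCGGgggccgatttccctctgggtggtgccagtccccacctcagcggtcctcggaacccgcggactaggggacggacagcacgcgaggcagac
Both windows were GC-rich, at 64.4% for AXL and 68.4% for MET against a median of 58.0% over 35116 RefSeq promoters of the same length. Each held 2 GC boxes, a motif present in 42.6% of those promoters. The promoters used here covered 9 of the 10 genes, and only the window nearest the annotated gene start was searched. That was 1 of 8 windows for DDR1 and 1 of 2 for AXL and for TYRO3. Among the windows searched, that of DDR1 alone had no GC box. The motif was thus shared by genes that fell and genes that did not pass. An AP-1 element (TGANTCA, 6.57% of promoters) was found in the window of TYRO3 and in no other of the 9. A TEAD element (GGAATG, 11.9%) was found in that of EPHA2 and in no other. A match describes letters in this window and is not a binding site.

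Of the 10 genes, 4 fell in siRNA-1 cells and 0 rose. The falls were those of AXL, MET, FGFR1 and INSR. In edgeR's quasi-likelihood test 62.5% of all tested genes changed (31.0% fell and 31.5% rose at an adjusted p under 0.05). The share of 40.0%, all of it falls, lay below the share that changed and above the share that fell. A share of 10 genes is coarse, and these differences were not tested. The median log2 fold change of the 10 genes was -0.06, against 0.01 over all genes tested. AXL lay at the 6.18th percentile of log2 fold changes over all genes, and was 1 of the 8.14% of genes that fell at least 2-fold. The libraries of the groups did not overlap at 5 of the 10 genes, a pattern found at 67.6% of all genes. Without siCTRL 2, 5 of the 10 fell and 1 rose, while 68.7% of genes changed (34.3% fell and 34.5% rose). Leaving out this library could lower the adjusted p where the fold change hardly moved. MET went from a log2 fold change of -0.713 (adjusted p = 2e-07) to -0.717 (adjusted p = 2.5e-26). Calls gained without siCTRL 2 are therefore not on the same footing as calls over all libraries.

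**Figure D1:**
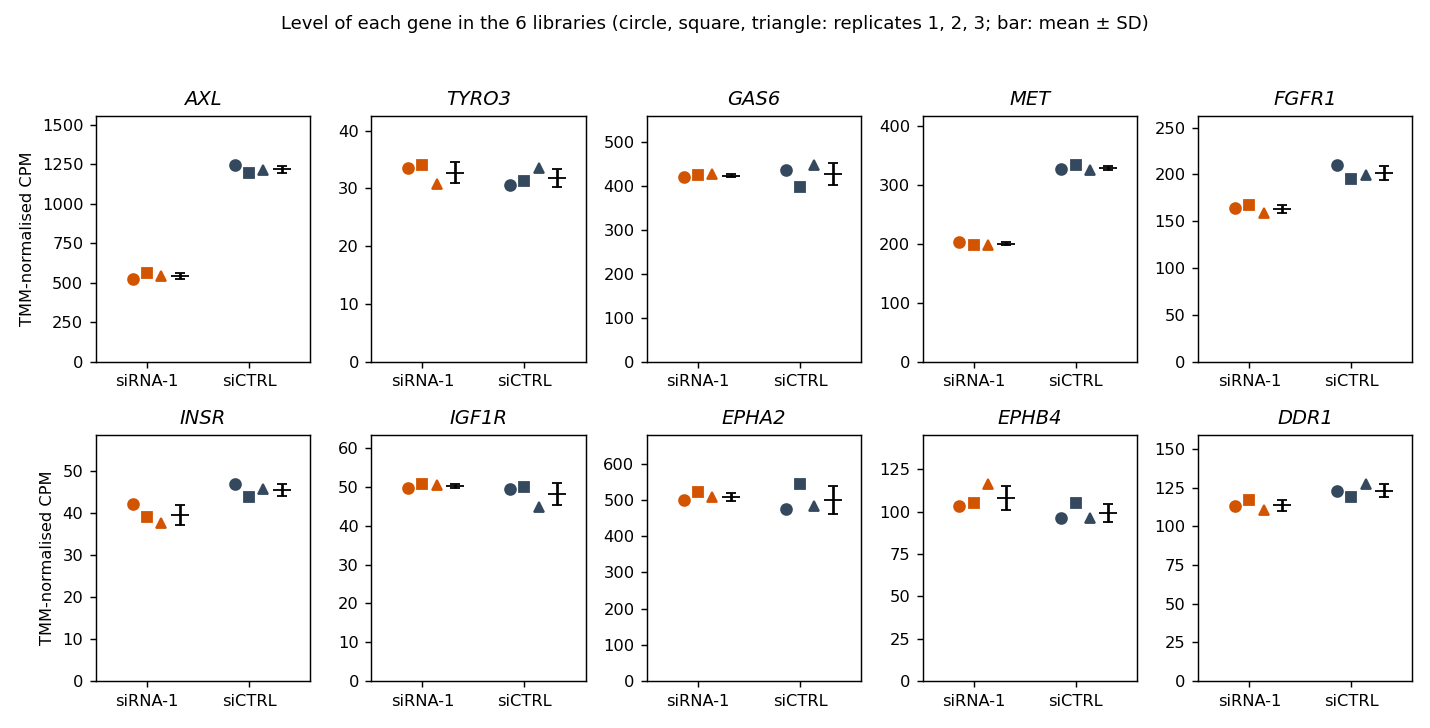
Each panel plots TMM-normalised CPM of 1 gene in the 3 siRNA-1 and 3 siCTRL libraries, with axes that start at 0, markers by replicate and a bar for mean ± SD. AXL (523 to 565 CPM in siRNA-1, 1199 to 1245 CPM in siCTRL) and MET separate widely, whereas GAS6, TYRO3, IGF1R and EPHA2 overlap.

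The TAM receptors AXL, TYRO3 and MERTK bind GAS6 and protein S, and dampen inflammation and promote survival and migration. AXL had 523, 565 and 544 CPM in siRNA-1 libraries 1 to 3, against 1245, 1199 and 1213 CPM in siCTRL libraries 1 to 3. The highest siRNA-1 library thus lay far below the lowest control. AXL fell 2.24-fold, with 544 ± 21.1 CPM in siRNA-1 and 1219 ± 23.3 CPM in siCTRL cells (SD, n = 3 each, log2 fold change -1.16, SE 0.0507, edgeR adjusted p = 5.66e-09). This call held in all 14 settings run, with a log2 fold change between -1.20 and -1.13. The gene (ENSG00000167601) spans chromosome 19, plus strand, positions 41219203 to 41261766 (GRCh38, GENCODE 29), and the antisense gene AC011510.1 overlaps 1.30% of its exonic bases.

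TYRO3 (ENSG00000092445, chromosome 15, plus strand, 41557675 to 41583586), the other TAM receptor of the set, did not pass the test. It had 33.5, 34.0 and 30.7 CPM in siRNA-1 libraries, against 30.6, 31.3 and 33.5 CPM in siCTRL libraries. The groups overlapped, and the log2 fold change of 0.04 (adjusted p = 0.651) had an interval of 2 SE on either side from -0.11 to 0.20. Within each library the log2 ratio of AXL to TYRO3 counts was 3.96, 4.05 and 4.15 in siRNA-1 and 5.35, 5.26 and 5.18 in siCTRL. This ratio takes no scaling between libraries, and it was lower in every siRNA-1 library than in any control (exact two-sided permutation p = 0.1, the smallest that 3 against 3 libraries allow, and 0.1 after adjustment over the 5 ratios computed).

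GAS6, the vitamin K-dependent protein that activates AXL, was nearly level between the groups. Its libraries had 420.4, 425 and 428 CPM in siRNA-1, against 437, 399 and 448 CPM in siCTRL. The siRNA-1 libraries lay within the range of the controls. The log2 fold change was -0.01 (adjusted p = 0.862) with an interval from -0.12 to 0.10, which changed sign without scaling (0.03) and without siCTRL 3 (0.02). GAS6 (ENSG00000183087, minus strand of chromosome 13, 113820549 to 113864067) shares 7.01% of its exonic bases with the antisense gene GAS6-AS1, and no source used here says whether counting used strand. The log2 ratio of receptor to ligand reads, AXL over GAS6, averaged 0.36 ± 0.0493 in siRNA-1 and 1.51 ± 0.0762 in siCTRL libraries (SD, n = 3 each, exact permutation p = 0.1).

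Of 5 other TAM receptor and ligand genes, 4 were tested, of which 3 fell and 0 rose (median of the log2 fold changes -0.56), where 31.0% of all tested genes fell. Without siCTRL 2 there were also 3 falls and 0 rises. PROS1, which encodes protein S, the other main TAM ligand, fell to 59.0 ± 3.02 CPM in siRNA-1, against 104 ± 4.78 CPM in siCTRL cells (log2 fold change -0.81, adjusted p = 5.82e-07). LGALS3, which encodes galectin-3, a reported ligand of MERTK, fell to 70.3 ± 1.04 CPM in siRNA-1, against 178 ± 16.6 CPM in siCTRL cells (-1.34, adjusted p = 2.61e-08). MERTK itself had 19.2 ± 0.392 CPM in siRNA-1 and 23.5 ± 1.87 CPM in siCTRL cells (-0.29, adjusted p = 0.0124), a fall that did not pass without siRNA-1 replicate 1 (0.0514).

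MET is the receptor of hepatocyte growth factor and drives scattering and invasion of epithelial cells. It had 204, 199 and 199 CPM in siRNA-1 libraries, against 328, 334 and 326 CPM in siCTRL libraries. Libraries of a group differed by a few CPM and the groups by more than 100. MET fell 1.64-fold, with 201 ± 3.02 CPM in siRNA-1 and 329 ± 4.31 CPM in siCTRL cells (log2 fold change -0.71, SE 0.0487, adjusted p = 2e-07), and passed in all 14 settings. The gene (ENSG00000105976) spans chromosome 7, plus strand, positions 116672390 to 116798386, and no other annotated gene overlaps its exons.

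The ligand gene HGF had 0 counts in all libraries. Of 7 tested genes of the list for MST1R, ligands and proteases, 4 fell and 0 rose (57.1% changed, against 62.5% of all genes, median -0.68). There were 4 falls and 2 rises without siCTRL 2, the rises being those of MST1 and HGFAC. HGFAC, which encodes an activator of hepatocyte growth factor, was low at 1.27 ± 0.160 CPM in siRNA-1 and 0.629 ± 0.533 CPM in siCTRL cells. Its libraries held 20, 20 and 16 counts in siRNA-1 and 4, 16 and 5 in siCTRL. The log2 fold change from these few counts was 1.04 over all libraries (adjusted p = 0.0686) and 1.94 without siCTRL 2. SPINT1 and SPINT2 encode inhibitors of the proteases that activate hepatocyte growth factor. SPINT2 had 133 ± 5.30 CPM in siRNA-1 and 211 ± 28.4 CPM in siCTRL cells (log2 fold change -0.67, adjusted p = 3e-05). SPINT1 was lower at 4.36 ± 0.371 CPM in siRNA-1, against 12.7 ± 1.04 CPM in siCTRL cells (-1.54, adjusted p = 1.41e-06). TMPRSS2, a membrane serine protease gene, had 2.74 ± 0.665 CPM in siRNA-1 and 7.89 ± 1.28 CPM in siCTRL cells (-1.52, adjusted p = 4.52e-05). MST1R, the receptor gene closest to MET, named after its value was seen, had a log2 fold change of -0.05 (adjusted p = 0.646).

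FGFR1, a receptor for fibroblast growth factors, had 164, 167 and 159 CPM in siRNA-1 libraries, against 209.8, 195 and 199.9 CPM in siCTRL libraries. The groups did not overlap. FGFR1 fell 1.23-fold (log2 fold change -0.30, SE 0.0532, adjusted p = 0.000389) and passed in all 14 settings, with an adjusted p of at most 0.00478. Of 13 tested genes for other FGF receptors, ligands and cofactors, 5 fell and 3 rose (61.5% changed, against 62.5% of all genes). The rises included the receptor genes FGFRL1 (0.30, adjusted p = 0.00213) and FGFR4 (0.61, adjusted p = 0.0154). FGFR4 was low at 3.43 CPM in siRNA-1 and 2.25 CPM in siCTRL cells. FGFRL1 and FGFR4 were named after their values were seen. There were 7 falls, with FGF5 and FGF11 added, and 3 rises without siCTRL 2. Another 17 genes had too few counts, FGF2 (at most 4 in a library) and FGFR2 (at most 2) among them. Cell-surface proteoglycan genes, whose products present fibroblast growth factors, went both ways: SDC3 had 67.5 ± 3.12 CPM in siRNA-1 and 139 ± 14.1 CPM in siCTRL cells (-1.04, adjusted p = 3.69e-07). SDC4 had 387 ± 22.4 CPM in siRNA-1 and 254 ± 3.71 CPM in siCTRL cells (0.60, adjusted p = 2.26e-06). Like SDC3, SDC1 (-0.40, adjusted p = 0.00126) and SDC2 (-0.195, adjusted p = 0.00818) fell, so that SDC4 alone rose among the SDC genes. GPC1 (0.075, adjusted p = 0.314) did not pass. SDC1, SDC2 and GPC1 were named after their values were seen. FRS3, an adaptor gene of the FGF receptors, had 4.92 ± 0.0874 CPM in siRNA-1 and 9.94 ± 0.309 CPM in siCTRL cells (-1.01, adjusted p = 2.53e-05). Its relative FRS2, named after its value was seen, gave -0.09 (adjusted p = 0.326).

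INSR (ENSG00000171105, chromosome 19, minus strand, 7112255 to 7294034), the insulin receptor gene, had 42.3, 39.1 and 37.6 CPM in siRNA-1 libraries, against 46.9, 44.0 and 45.9 CPM in siCTRL libraries. The groups were separate but close. INSR fell 1.15-fold (log2 fold change -0.20, SE 0.0705, adjusted p = 0.0264), the smallest of the 4 falls. It passed in 7 of 14 settings, and not without siRNA-1 replicate 2 (0.0928) or 3 (0.125), nor without siCTRL replicate 1 (0.0705) or 3 (0.0593).

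IGF1R (ENSG00000140443, chromosome 15, plus strand, 98648539 to 98964530), its close relative and the receptor of insulin-like growth factors, had 49.8, 50.7 and 50.6 CPM in siRNA-1, against 49.5, 50.1 and 45.0 CPM in siCTRL libraries. The groups overlapped (log2 fold change 0.06, interval -0.07 to 0.20, adjusted p = 0.420). The log2 ratio of INSR to IGF1R counts was -0.24, -0.37 and -0.43 in siRNA-1 and -0.08, -0.19 and 0.03 in siCTRL libraries, with no overlap (exact permutation p = 0.1). The ligand genes IGF1 and IGF2 had at most 3 counts in any library. Among 8 tested genes of the insulin and IGF list, 4 fell and 2 rose (75.0% changed, against 62.5% of all genes). The counts were 5 falls and 2 rises without siCTRL 2, where IGFBP4 was added (-0.18). The genes of secreted binding proteins went both ways. IGFBP3, IGFBP7 and IGFBP1 (-1.15, adjusted p = 0.00065) fell, whereas IGFBP6 rose (0.34, adjusted p = 0.00655). IGFBP1 and IGFBP6 were named after their values were seen. IGFBP3 had 82.9 ± 3.37 CPM in siRNA-1 and 186 ± 34.7 CPM in siCTRL cells (-1.16, adjusted p = 3.07e-06), and IGFBP7 had 444 ± 5.73 CPM in siRNA-1 and 624 ± 74.5 CPM in siCTRL cells (-0.49, adjusted p = 0.000137). IGF2R, which clears IGF2 and sorts lysosomal enzymes, rose to 665 ± 31.9 CPM in siRNA-1, against 430.5 ± 21.0 CPM in siCTRL cells (0.63, adjusted p = 2.01e-06).

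EPHA2 and EPHB4 are Eph receptors, which bind membrane-bound ephrins on neighbouring cells. EPHA2 (ENSG00000142627) spans 16124337 to 16156087 on the minus strand of chromosome 1, and EPHB4 (ENSG00000196411) 100802565 to 100827521 on that of chromosome 7. EPHA2 had 499, 521 and 507 CPM in siRNA-1 libraries, against 475, 543 and 482 CPM in siCTRL libraries. The siRNA-1 values lay inside the control range, which siCTRL 2 widened. The log2 fold change was 0.03 (adjusted p = 0.726, interval -0.09 to 0.14), and it changed sign without siCTRL replicate 1 (-0.02).

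EPHB4 had 103, 105 and 116 CPM in siRNA-1 libraries, against 96.0, 105 and 96.3 CPM in siCTRL libraries. Only siCTRL 2 reached the siRNA-1 range. Over all libraries the log2 fold change of 0.12 had an adjusted p of 0.130, and without siCTRL 2 EPHB4 rose (0.15, adjusted p = 0.0105). Without siRNA-1 replicate 1 the log2 fold change was as large (0.154) but did not pass (adjusted p = 0.114). The call thus depends on leaving out siCTRL 2 and not on the size of the change alone. Among 6 other tested Eph receptor genes 3 rose and 1 fell (66.7% changed, against 62.5% of all genes). The counts were 4 rises and 1 fall without siCTRL 2, where EPHB3 was added (0.71). EPHB2 had 75.1 ± 1.45 CPM in siRNA-1 and 111 ± 6.98 CPM in siCTRL cells (-0.56, adjusted p = 8.79e-06), and EPHA4 had 23.7 ± 1.57 CPM in siRNA-1 and 18.6 ± 1.40 CPM in siCTRL cells (0.35, adjusted p = 0.00651). EPHA6 was near the limit of 3 counts in siCTRL cells (0.886 ± 0.148 CPM in siRNA-1, 0.343 ± 0.242 CPM in siCTRL, adjusted p = 0.0327) and passed in 7 of 13 settings. EPHA10, also among the rises, was low at 1.76 ± 0.479 CPM in siRNA-1 and 1.01 ± 0.272 CPM in siCTRL cells (adjusted p = 0.0422). Its groups overlapped. EPHA5 and EPHB3, which did not pass over all libraries, had at most 3.53 CPM on average in either group. The list's median of 0.53 thus rests on low genes. EPHA5 and EPHA10 were named after their values were seen.

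Of the ephrins, 3 of 6 tested fell and 1 rose (66.7% changed, against 62.5% of all genes). They numbered 2 falls and 1 rise without siCTRL 2. EFNB2, which encodes the principal ligand of EPHB4, fell to 49.3 ± 1.41 CPM in siRNA-1, against 82.4 ± 7.43 CPM in siCTRL cells (-0.74, adjusted p = 3.82e-06). EFNA1, a ligand gene for EPHA2, rose to 9.92 ± 1.94 CPM in siRNA-1, against 6.20 ± 0.668 CPM in siCTRL cells (0.68, adjusted p = 0.00334). EFNA5 fell by 0.27 on the log2 scale (adjusted p = 0.0229) and passed in 10 of 14 settings, not without siRNA-1 replicate 1 (0.110) or 3 (0.0552) or siCTRL replicate 1 (0.0999).

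DDR1 (ENSG00000204580, chromosome 6, plus strand, 30876421 to 30900156), a receptor that is activated by collagen, had 113, 117 and 110.2 CPM in siRNA-1 libraries, against 123, 119 and 127 CPM in siCTRL libraries. The groups did not overlap, yet the log2 fold change of -0.11 (SE 0.0547) had an adjusted p of 0.0880. Without siCTRL 2 it fell (-0.15, adjusted p = 0.00572), and it also fell when genes with a mean under 100 counts were left out (-0.15, adjusted p = 0.0247). The interval over all libraries, -0.22 to -0.01, does not reach the size of the change in MET or AXL.

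**Figure D2:**
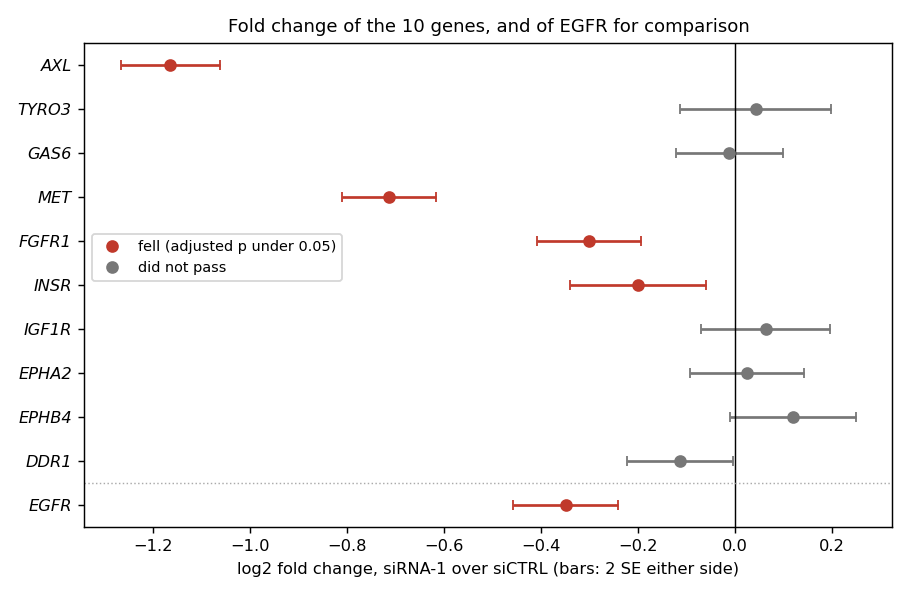
The log2 fold change of siRNA-1 over siCTRL is plotted for each of the 10 genes and EGFR, with bars of 2 SE on either side and red points for genes with an adjusted p under 0.05. AXL (-1.16) and MET (-0.71) lie left of EGFR (-0.35), while the intervals of TYRO3, GAS6, IGF1R, EPHA2 and EPHB4 cross 0.

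Set beside EGFR, the receptor the series is about, AXL and MET had more negative log2 fold changes. EGFR had 360.1 ± 15.2 CPM in siRNA-1 and 459 ± 17.9 CPM in siCTRL cells (log2 fold change -0.35, adjusted p = 0.000147). Within libraries the log2 ratio of AXL to EGFR counts was 0.61, 0.60 and 0.58 in siRNA-1 and 1.46, 1.32 and 1.45 in siCTRL. That of MET to EGFR was -0.75, -0.90 and -0.87 in siRNA-1 and -0.46, -0.52 and -0.45 in siCTRL. Neither ratio overlapped between the groups, and each had an exact permutation p of 0.1, so that the design could not bring either under 0.05.

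Levels can be set against each other between genes only per length. Per kilobase of annotated exon, EPHA2 was highest in siRNA-1 cells at 122 CPM, AXL followed at 106 and GAS6 at 70.6, without overlap between these neighbours. In siCTRL cells AXL was highest at 237 CPM per kilobase, ahead of EPHA2 at 120.3 and GAS6 at 71.3, again without overlap. MET came next in both groups (28.6 in siRNA-1, 46.7 in siCTRL). EPHB4, DDR1 and FGFR1 followed between 11.8 and 16.8 in siRNA-1 and between 13.5 and 15.4 in siCTRL cells. INSR, IGF1R and TYRO3 were lowest (2.99 to 3.80 in siRNA-1, 2.91 to 4.36 in siCTRL). Neighbours whose libraries overlapped were DDR1 with FGFR1 and INSR with IGF1R in siRNA-1, and EPHB4 with FGFR1 in siCTRL. When each gene was divided by its longest coding transcript instead, a choice made after seeing the data, AXL was still highest in siCTRL cells (257) and lay in siRNA-1 cells (115) behind GAS6 (170.3) and EPHA2 (128).

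**Figure D3:**
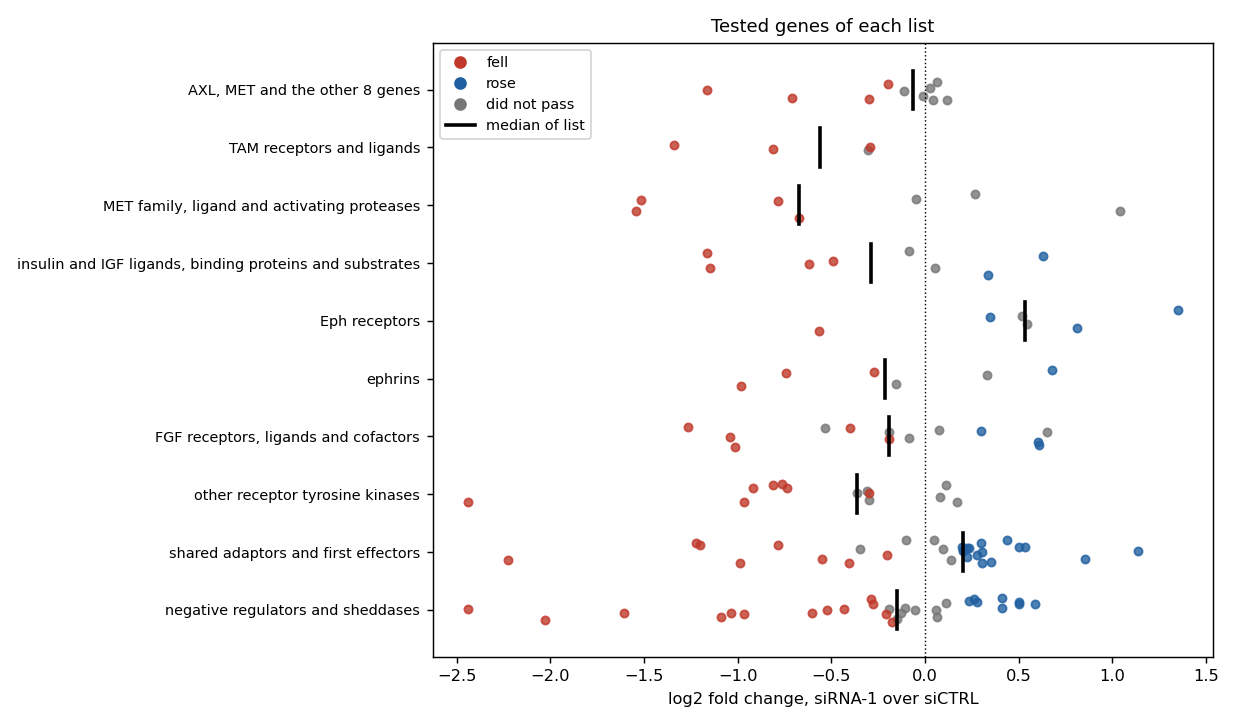
Each point is the log2 fold change (siRNA-1 over siCTRL) of 1 tested gene, by list, in red where it fell, blue where it rose and grey where it did not pass, with a black line at the list's median. Medians run from -0.68 for the MET list to 0.53 for the Eph receptors, and the 10 genes have a median of -0.06. The Eph receptor median lies between the values of EPHA5 and EPHB3, which had at most 3.53 CPM on average in either group.

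The shared adaptors and first effectors, which carry the signal of all these receptors, rose more often than they fell: 16 of 29 tested rose and 8 fell (82.8% changed, against 62.5% of all genes, median 0.20), and 16 rose and 9 fell without siCTRL 2. The 3 with the smallest p all fell. RAPGEF1, an exchange factor gene for RAP1 that acts downstream of CRK adaptors, had 84.8 ± 2.12 CPM in siRNA-1 and 198 ± 12.9 CPM in siCTRL cells (-1.22, adjusted p = 1.84e-08). Both other genes encode catalytic subunits of PI3-kinase. PIK3CD had 6.16 ± 0.574 CPM in siRNA-1 and 28.9 ± 2.66 CPM in siCTRL cells (-2.23, adjusted p = 2.01e-08), and PIK3CA had 22.7 ± 1.18 CPM in siRNA-1 and 45.1 ± 2.83 CPM in siCTRL cells (-0.99, adjusted p = 7.6e-07). The regulatory subunit genes PIK3R1 (log2 fold change 0.86, adjusted p = 3.07e-06) and PIK3R3 (1.14, adjusted p = 9.89e-06) rose, which were named after their values were seen. PIK3R2 was listed at 0 in every library, and whether its reads were lost in counting was not tested.

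Negative regulators and sheddases fell at 13 of 29 tested genes and rose at 8 (72.4% changed, against 62.5% of all genes, median -0.15). They numbered 14 falls and 8 rises without siCTRL 2. ENPP1, whose product can inhibit the insulin receptor, had 64.0 ± 1.97 CPM in siRNA-1 and 347 ± 30.6 CPM in siCTRL cells (-2.44, adjusted p = 7.04e-10). TIMP3, an inhibitor of the ADAM proteases that shed AXL and MET from the cell surface, had 247 ± 10.7 CPM in siRNA-1 and 1007 ± 189.8 CPM in siCTRL cells (-2.03, adjusted p = 3.99e-08). The sheddase genes had smaller log2 fold changes (ADAM10 -0.21, adjusted p = 0.0112, and ADAM17 0.11, adjusted p = 0.120, named after their values were seen). SPRY4, a feedback inhibitor of receptor signalling, fell to 83.8 ± 2.28 CPM in siRNA-1, against 172 ± 12.8 CPM in siCTRL cells (-1.04, adjusted p = 9.12e-08).

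Receptor tyrosine kinases of other families fell at 7 of 13 tested genes and rose at 0 (median -0.37). These 53.8% that changed compare with 62.5% of all genes, of which 31.0% fell and 31.5% rose. Another 14 had too few counts to test. Among these 14, PDGFRA had at most 4 counts in a library, KIT at most 1, and RET had 0. Without siCTRL 2, 7 fell and 2 rose, LMTK2 and ROR1. PTK7, a pseudokinase receptor of WNT and planar polarity signalling, had 44.0 ± 1.92 CPM in siRNA-1 and 83.2 ± 5.07 CPM in siCTRL cells (-0.92, adjusted p = 3.57e-07). CSF1R, the receptor gene for colony-stimulating factor 1, was low at 0.961 ± 0.519 CPM in siRNA-1 and 5.20 ± 1.10 CPM in siCTRL cells (-2.44, adjusted p = 3.17e-05). RYK, a WNT receptor gene, fell by 0.30 on the log2 scale (adjusted p = 0.00178). KDR, STYK1, LMTK3 and AATK, the other falls, had at most 8.56 CPM on average in either group. The list's median is the value of LTK, which had 2.04 CPM in siRNA-1 and 2.63 CPM in siCTRL cells and did not pass. The falls and the median thus rest largely on low genes. KDR, STYK1, LMTK3, AATK and LTK were named after their values were seen. Over all 9 lists 115 of 166 genes were tested, of which 48 fell and 33 rose (70.4% changed, against 62.5% of all genes). The counts were 52 falls and 38 rises without siCTRL 2, where 68.7% of all genes changed.

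A measure the choice of genes did not use was the 3′ untranslated region (UTR). The 7-base sequence GCTCACT was the one whose presence differed most between genes that fell at least 2-fold (36.4% of 1005) and the other genes (17.5% of 11270), taking the longest annotated 3′ UTR of each gene. It was picked from these same data, and the genes that fell had longer 3′ UTRs (median 1610 against 1389 bases). Among the 10 genes it was present in MET, IGF1R and TYRO3, against 19.0% of all 12275 genes whose 3′ UTR had 50 bases or more, reading the sense strand. The sites of MET, IGF1R and EGFR are shown because genes with the sequence included MET and EGFR, which fell, and IGF1R and TYRO3, which did not pass. Each line gives 27 bases of the plus strand (GRCh38, GENCODE 29), 5′ to 3′, with the 7 bases in capitals, from chr7:116796696-116796722, chr15:98958776-98958802 and, for EGFR, chr7:55210087-55210113.
MET: tgtgatcataGCTCACTgcaacctcca
IGF1R: tcccctttctGCTCACTccaagaaact
EGFR: aatggaaaggGCTCACTgttgttacta
TYRO3 carried 4 copies in 5310 bases of 3′ UTR and had a log2 fold change of 0.04. AXL, with the largest fall of the set, carried 0 copies in 1862 bases, and so did INSR in 4801 bases and FGFR1 in 4008 bases.

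Genes with a profile most like AXL included GPRC5A, MBP and DNMBP, by the root mean square difference of centred log2 CPM over the 6 libraries among 9883 genes. These differences were 0.0243, 0.0268 and 0.0288, and the log2 fold changes ran from -1.20 to -1.13. For MET they were HMGA1 (0.0285), CD82 (0.0286), ZNF528 (0.0289) and AP2B1 (0.0314), with log2 fold changes from -0.74 to -0.70. With 2 groups of 3 libraries the measure mainly finds genes with a fall of the same size.

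**Figure D4:**
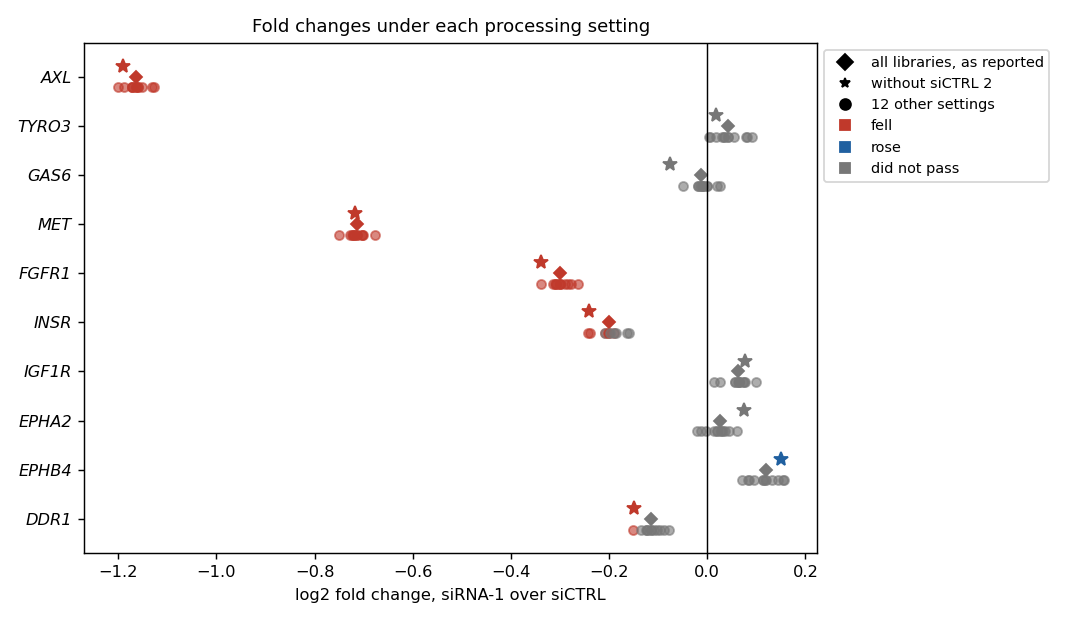
The log2 fold change of each gene is plotted as reported (diamonds), without siCTRL 2 (stars) and under 12 other settings (circles), in red or blue where it fell or rose and in grey where it did not pass. AXL, MET and FGFR1 are red throughout, INSR is red in some, and EPHB4 and DDR1 pass without siCTRL 2.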

How the data were processed

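RNA of 3 siRNA-1 and 3 siCTRL cultures was sequenced to 12813706 to 15014434 counts a library, and intervals cover counting error and spread between these libraries alone. The authors deposited raw counts per Ensembl gene for 6 libraries, and the submitters' processing notes name HTSeq, STAR, Trimmomatic and kallisto without versions, and the build hg38. Libraries were made with a NEBNext Ultra kit, per the labels. No source used here gives the annotation release or strand setting.

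The counts went into edgeR 4.0.16 under R 4.3.3 (filterByExpr at min.count 10 and min.total.count 15, TMM scaling, a quasi-likelihood test of group with no covariate, Benjamini-Hochberg adjustment over the 12440 genes tested, threshold 0.05). The steps were also run on simulated data in which few genes changed. In the real data 62.5% of tested genes changed, so that run does not check the scaling or error rates under such wide change. CPM use TMM-scaled library sizes. Alternatives used DESeq2 1.42.0 and limma 3.58.1.

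The 10 genes and the 9 related lists were chosen with earlier results of these data known. Beside the 10 genes and EGFR, the text names the 3 called, non-overlapping genes with the smallest adjusted p of each list, and, of the 4 profiles nearest to AXL and to MET, all but 1 that is not reported here. Genes outside this rule (MST1R, untested ligand and receptor genes, those whose call changes without siCTRL 2, and those so marked) were picked with their values in view. Promoters come from RefSeq (the start nearest to that of the GENCODE gene), and 3′ UTRs and gene positions from GENCODE 29.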

Additional observations from a re-analysis of the deposited data

How the results depend on the processing

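Alternatives were limma-voom, DESeq2 (its Wald test, and its size factors in edgeR), library size as the only scaling, an expression filter left off or set to a mean of 100 counts, a threshold of 0.01, a block for replicate number, and leaving out each library. AXL, MET and FGFR1 kept direction and call in all of them. INSR did not pass without scaling (log2 fold change -0.16), by the DESeq2 Wald test (-0.21) or at the threshold of 0.01 (-0.20), and ran from -0.24 to -0.16 with a library left out. DDR1 passed at a mean of at least 100 counts (-0.15) and ran from -0.15 to -0.089 with a library left out, and EPHB4 from 0.07 to 0.15. GAS6 changed sign without scaling (0.026) and ran from -0.075 to 0.019 with a library left out. EPHA2 changed sign at a mean of at least 100 counts (-0.012) and ran from -0.021 to 0.074 with a library left out. AXL and MET also shifted down at a mean of at least 100 counts (from -1.164 to -1.201 and from -0.713 to -0.75). Without scaling they shifted up (to -1.127 and -0.677), as GAS6 did. The cause of the sign changes was not tested. With a library left out, 3 to 6 of the 10 genes changed, with 3 to 5 falls and 0 to 1 rises, and 6848 to 8635 genes changed in all. Of 501 values of 36 other genes that met the naming rule, 489 kept direction and call and 12 no longer passed, those of MERTK, EPHA6 and EFNA5. Same-numbered libraries did not deviate together (r = 0.0669, -0.0782 and -0.0571 across genes), and with the replicate block, 4 of the 10 genes changed, as without it, and 7535 genes changed in all. Counts limit genes near 0.233 CPM.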
